A study of Homo sapiens with 4 samples.

Results

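The 8 genes described here encode enzymes and cofactors that write, read or remove marks on chromatin: the DNA methyltransferase DNMT3B, the Polycomb subunits PHC1 and PHC2, the histone deacetylases HDAC5 and HDAC9, the histone acetyltransferases MYST2 (now KAT7) and MYST4 (now KAT6B), and the SWI/SNF-type helicase SMARCA3 (now HLTF). They were chosen by name and were measured by 11 of the 47289 features on the array that remained after 4 control features had been left out. A feature carries many copies of a single probe, and its suffix tells what the probe matches: A stands for all known isoforms of a gene, I for a particular isoform, and S for a gene with a single transcript on the array. DNMT3B (GI_28559062-A and GI_28559059-I), HDAC5 (GI_21237796-A and GI_21237796-I) and SMARCA3 (GI_21071053-A and GI_21071051-I) had 2 features each, and PHC1 (GI_11038623-S), PHC2 (GI_37595529-A), HDAC9 (GI_7662279-I), MYST2 (GI_34222309-S) and MYST4 (GI_6912511-S) had 1 each.

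The study silenced the transcription factors OCT4, NANOG and SOX2 to find out what each of them controls in human embryonal carcinoma (hEC) cells. The line was NCCIT, an established line derived from a germ cell tumour and kept as a model of undifferentiated human stem cells. Its karyotype is abnormal, and the results come from this single line. There were 4 groups of 3 biological replicates, each replicate hybridised to an array of its own: a mock group that received the Hyperfect transfection reagent, and cells transfected with esiRNA (a pool of short interfering RNAs cut by enzyme from a longer double strand) against OCT4, NANOG or SOX2 transcripts. By the labels all groups were plated at 70000 cells per square centimetre and collected at day 2.5, whereas the study's methods give a lower density for its routine transfections and other days of harvest for its arrays, so both figures carry this doubt. No esiRNA against an unrelated sequence was among the groups used here, so the presence of any esiRNA and the loss of its target cannot be told apart in a comparison with mock. RNA came from the whole culture, in which fewer cells expressing a gene and less RNA per cell cannot be told apart. Between 11196 and 12858 features were detected per array, a feature counting as detected when its detection score against the negative controls was at least 0.99.

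Signals are given on a log2 scale after background correction and quantile normalisation. Arrays of the same group correlated at r = 0.992 to 0.997 across features, which are not independent replicates. Correlations were 0.9899 to 0.995 between the OCT4 and SOX2 knock-downs, 0.972 to 0.982 between mock and the NANOG knock-down, and 0.931 to 0.938 between mock and the OCT4 knock-down. The SOX2 knock-down stood as far from mock, at 0.931 to 0.936.

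The targeted transcripts were examined first. POU5F1, which encodes OCT4, had log2 signals of 9.39, 9.12 and 9.26 on the mock arrays and 5.32, 5.10 and 4.73 after OCT4 silencing, where only 1 of the 3 arrays still detected it. The fitted change was -4.21 (adjusted p = 7.73e-11), or -2.53 without background correction, but its size was not measured in full. With the other 2 arrays set at the lowest signal that counted as detected on them, the fall was 16.2-fold, a lower limit. NANOG stood at 8.42, 8.50 and 8.32 in mock and at 6.66, 6.49 and 6.57 after its own silencing, a change of -1.85 (adjusted p = 1.28e-07), or -1.23 without background correction. Each of these targets thus fell in the group labelled with it, but not there alone. In the SOX2 knock-down neither POU5F1 (5.003, 4.82 and 4.97) nor NANOG was above background on any array, and NANOG was below background in the OCT4 knock-down too. POU5F1 therefore does not tell the OCT4 label from the SOX2 label, and which of these groups is which rests on the labels. In the study's Western blots, SOX2 protein was strongly lowered by OCT4 silencing, and OCT4 and NANOG protein substantially by SOX2 silencing. The SOX2 label was not checked on its own target: no feature was matched to SOX2 here, and the study describes that transcript as too weak for its arrays and followed it by real-time PCR. Where a feature was above background on no array of a group, only a bound is given, the mean of the bright group against the lowest signal that counted as detected on the arrays of the dim group (or the dim feature's own signal where that was higher). On this basis POU5F1 was at least 15.2-fold lower than mock in the SOX2 knock-down, and NANOG at least 8.52-fold lower there and at least 9.34-fold lower in the OCT4 knock-down. All limits given for these targets hold only under the background correction used. Without it the changes were smaller: -2.57 for POU5F1 and -1.93 for NANOG in the SOX2 knock-down, and -1.88 for NANOG in the OCT4 knock-down. POU5F1 stood at -0.42 against mock in the NANOG knock-down, which missed the threshold (adjusted p = 0.0278).

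As background, DNA methylation and histone modification fix which genes a cell can use. DNMT3B places methyl groups on unmethylated DNA and is abundant in undifferentiated stem cells. Polycomb repressive complex 1, in which the PHC proteins are the polyhomeotic subunits, compacts chromatin and marks histone H2A at silent developmental genes, and Polycomb repressive complex 2 methylates histone H3 at many of the same genes. Histone acetyltransferases loosen chromatin, and deacetylases reverse this.

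A feature was called changed when the adjusted p was below 0.01 and the size at least 1.5-fold, in a fit over 12374 features that were detected on all arrays of at least 1 group. With OCT4 silenced, all 8 features detected on every array were called. PHC2 and both of HDAC5 rose, and the all-isoform DNMT3B feature, PHC1, MYST2 and both of SMARCA3 fell. Over all tested features 13.6% rose and 10.7% fell. SOX2 silencing gave the same calls for these 8, beside 13.3% higher and 10.3% lower over all features. The DNMT3B isoform feature fell in both knock-downs as well. HDAC9 (higher) and MYST4 (lower) were also called, but passed the detection filter only through groups where they were high. The filter thus picked them for these differences, and they are left out of the count. Calls use fitted sizes, also for features below background in a group. HDAC9, below background in mock, was called in this way, and its size with SOX2 silenced can only be bounded at 1.46-fold, under the threshold. With NANOG silenced, 3 of the 11 rose (PHC2 and both of HDAC5) and 5 fell (both of DNMT3B, PHC1, MYST2 and the SMARCA3 isoform feature), beside 4.61% and 4.02% of all features. HDAC9, MYST4 and the all-isoform SMARCA3 feature were not called. The median change of the 11 features was -0.84 (OCT4) and -0.88 (SOX2), with HDAC9 at the bound given further on, and -0.59 over the 10 other features with NANOG silenced, beside medians of -0.03, -0.04 and 0.0068 over all features. With the methods' t-test after Benjamini-Hochberg adjustment PHC1 was the only member called in the NANOG knock-down, and the HDAC5 isoform feature was not called in any knock-down. All 11 features stand on the study's own list of transcripts that changed on these arrays, so the counts are a description and no independent evidence that the enzymes respond. The comparisons share the mock arrays.

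Of the 11 features, 8 were detected on all 12 arrays. MYST4, which passed through the mock and NANOG groups alone, was detected on 10, the DNMT3B isoform feature on 11, and HDAC9 on 6, having entered the fit only through the OCT4 and SOX2 knock-downs, where it was high. The balance between rises and falls over the whole array moved with the scaling. In the OCT4 knock-down 56.1% of the called features were higher, against 44.5% with median scaling and 74.4% with the background subtraction and floor that the study's methods describe, and the median change of all features was -0.03, -0.12 and 0.15 respectively. For the SOX2 knock-down the share was 56.2%, against 52.4% with median scaling and 72.9% with the methods' handling, where the median change was 0.11. In the NANOG knock-down it was 53.4%, against 44.7% and 59.2%, so that with median scaling falls outnumbered rises. The directions of the member changes called against mock were the same under each of these scalings, and every such size given below exceeds these shifts.

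**Figure D1:**
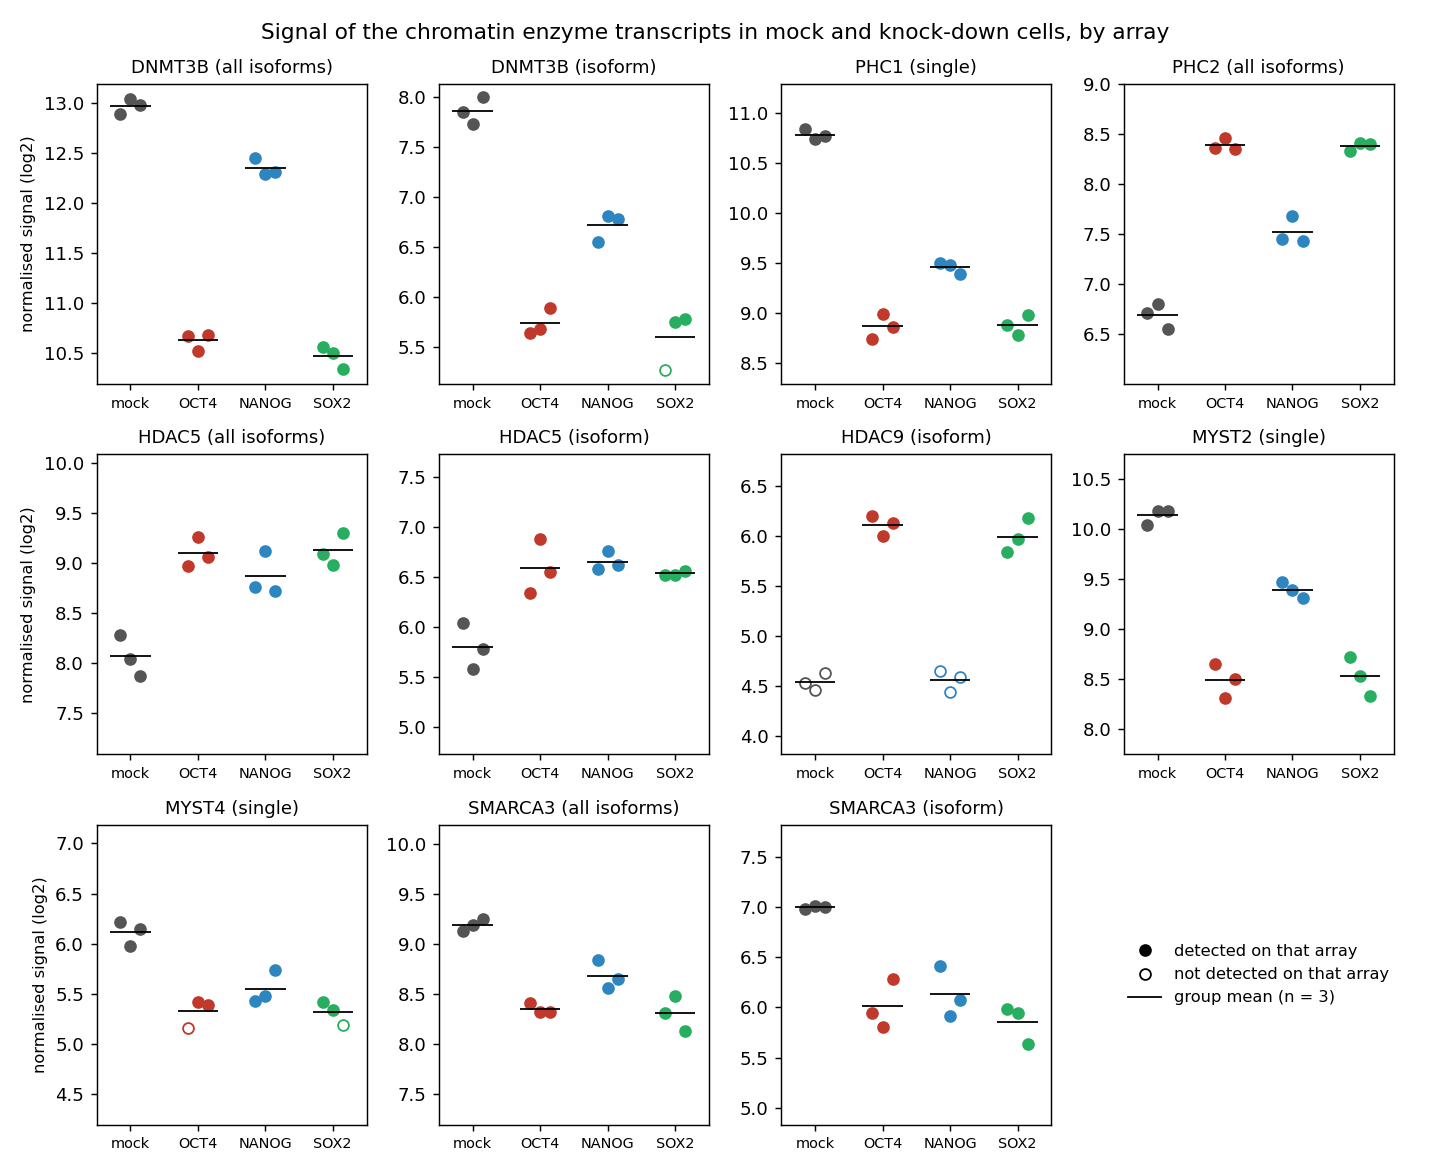
Normalised log2 signal of the 11 array features of the 8 genes on each of the 12 arrays; each panel spans its own stretch of the log2 axis, points are arrays in replicate order, bars are group means of 3 arrays, and open points are arrays on which the feature was not detected. The all-isoform DNMT3B feature lies between 12.90 and 13.04 in mock and between 10.35 and 10.68 in the OCT4 and SOX2 knock-downs, with the NANOG knock-down at 12.30 to 12.45, and HDAC9 is detected only in the OCT4 and SOX2 knock-downs.

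DNMT3B showed the largest falls among the 11 features when OCT4 or SOX2 was silenced. Its all-isoform feature read 12.90, 13.04 and 12.98 on the mock arrays, 10.68, 10.53 and 10.68 with OCT4 silenced, 12.45, 12.30 and 12.32 with NANOG silenced, and 10.56, 10.51 and 10.35 with SOX2 silenced. Mock was highest and the NANOG knock-down second, with no overlap between them or with the other groups, whereas the OCT4 and SOX2 knock-downs overlapped at the bottom. The change against mock was -2.34 ± 0.081 (SE, a 5.07-fold fall, adjusted p = 2.26e-10) with OCT4 silenced and -2.50 ± 0.081 (a 5.65-fold fall, adjusted p = 1.29e-10) with SOX2 silenced. NANOG silencing gave -0.62 ± 0.081 (a 1.53-fold fall, adjusted p = 0.000151), close to the fold threshold: without mock replicate 2 the change was -0.58 and was not called.

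The isoform feature of DNMT3B followed the same order at its own signal level. It read 7.85, 7.73 and 7.996 in mock, 6.55, 6.81 and 6.78 in the NANOG knock-down, 5.64, 5.68 and 5.89 in the OCT4 knock-down, and 5.27, 5.75 and 5.78 in the SOX2 knock-down, where it was detected on 2 of the 3 arrays. Against mock these were falls of -2.12 (OCT4), -1.14 (NANOG) and -2.26 (SOX2), each ± 0.14 (SE), with adjusted p of 6.23e-08, 6.77e-05 and 3.25e-08. The size of the fall depended on the background correction, without which it was -1.17 (OCT4), -0.73 (NANOG) and -1.22 (SOX2).

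The Polycomb subunits PHC1 and PHC2, paralogues within the same complex, moved in opposite directions in every knock-down. PHC1 read 10.84, 10.74 and 10.77 in mock, 9.50, 9.48 and 9.39 with NANOG silenced, 8.74, 8.99 and 8.86 with OCT4 silenced, and 8.88, 8.78 and 8.98 with SOX2 silenced. All knock-down arrays lay below all mock arrays, and the OCT4 and SOX2 groups overlapped below the NANOG group. The falls were -1.92 (OCT4, 3.78-fold, adjusted p = 1.39e-09), -1.32 (NANOG, 2.51-fold, adjusted p = 2.98e-07) and -1.90 (SOX2, 3.74-fold, adjusted p = 1.39e-09), each ± 0.081 (SE). PHC1 thus had the largest fall of the 11 features in the NANOG knock-down.

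PHC2 read 6.71, 6.81 and 6.55 in mock, 7.45, 7.69 and 7.43 with NANOG silenced, 8.36, 8.46 and 8.35 with OCT4 silenced, and 8.33, 8.41 and 8.40 with SOX2 silenced. The order was the mirror image of PHC1, with mock lowest, the NANOG knock-down above it and the remaining groups overlapping at the top. The rises were 1.70 (OCT4, 3.24-fold, adjusted p = 7.88e-09), 0.83 (NANOG, 1.78-fold, adjusted p = 2.6e-05) and 1.69 (SOX2, 3.23-fold, adjusted p = 7.72e-09), each ± 0.087 (SE). Without any background correction the NANOG rise was 0.50, under the fold threshold. The directions were the same under median scaling and under the methods' handling. Levels of different features cannot be set against each other on this array, so the data do not tell which of the paralogues was the more abundant.

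HDAC5 and HDAC9 are class IIa histone deacetylases, which shuttle between nucleus and cytoplasm and restrain MEF2 factors in muscle and nerve cells. The all-isoform HDAC5 feature read 8.28, 8.04 and 7.88 in mock, 8.97, 9.26 and 9.06 with OCT4 silenced, 8.76, 9.12 and 8.73 with NANOG silenced, and 9.09, 8.98 and 9.30 with SOX2 silenced. All 9 knock-down arrays lay above the mock arrays, and the knock-downs overlapped one another. The rises were 1.03 (OCT4, adjusted p = 4.09e-05), 0.80 (NANOG, adjusted p = 0.000959) and 1.06 (SOX2, adjusted p = 3.16e-05), each ± 0.14 (SE). The isoform feature of HDAC5 rose by 0.79, 0.85 and 0.74 in the same order, with signals of 5.57 to 6.03 in mock and 6.34 to 6.88 over the knock-down arrays (adjusted p = 0.000323, 0.000577 and 0.000555). Without background correction these isoform rises were 0.36, 0.39 and 0.33 and none was called, and with the methods' handling those for OCT4 and SOX2 were 1.32 and 1.22.

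The only HDAC9 feature matches a particular isoform, so other HDAC9 transcripts were not measured. This feature was below background in mock and in the NANOG knock-down, whereas both HDAC5 features were detected on all 12 arrays. It was detected on none of the mock arrays (4.53, 4.46 and 4.63) and none of the NANOG arrays (4.65, 4.44 and 4.59). On all arrays of the OCT4 knock-down (6.20, 5.99 and 6.13) and of the SOX2 knock-down (5.84, 5.97 and 6.18) it was detected. It was therefore at least 1.58-fold higher than mock with OCT4 silenced and at least 1.46-fold higher with SOX2 silenced. These bounds are descriptions, since the detection filter admitted HDAC9 only through these 2 knock-downs, where it was high. No fold is given for NANOG against mock, both being below background. Both rises were also called when no detection filter was applied, while the SOX2 rise stayed under the fold threshold without background correction.

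The acetyltransferases MYST2 and MYST4 both fell. MYST2, the catalytic subunit of a complex that acetylates histones and takes part in the licensing of DNA replication, read 10.05, 10.18 and 10.19 in mock, 9.48, 9.40 and 9.31 with NANOG silenced, 8.65, 8.32 and 8.50 with OCT4 silenced, and 8.73, 8.53 and 8.33 with SOX2 silenced. As for DNMT3B, mock was highest, the NANOG group intermediate, and the OCT4 and SOX2 groups overlapped. The falls were -1.65 (OCT4, 3.13-fold, adjusted p = 9.23e-08), -0.74 (NANOG, 1.67-fold, adjusted p = 0.000364) and -1.61 (SOX2, 3.05-fold, adjusted p = 1.09e-07), each ± 0.11 (SE).

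MYST4 belongs to a related acetyltransferase complex and gave a dim signal: 6.22, 5.98 and 6.15 in mock, 5.16, 5.42 and 5.39 with OCT4 silenced, 5.42, 5.48 and 5.73 with NANOG silenced, and 5.42, 5.34 and 5.19 with SOX2 silenced. It was detected on 2 of 3 arrays in the OCT4 and in the SOX2 knock-down and on all mock and NANOG arrays. MYST4 fell by 0.79 (OCT4, adjusted p = 4.89e-05) and by 0.80 (SOX2, adjusted p = 4.44e-05), and both calls were lost without background correction, at -0.30 each. The NANOG value of -0.57 ± 0.11 (SE, adjusted p = 0.00187) missed only the fold threshold, and it passed when mock replicate 2 (-0.65) or NANOG knock-down replicate 3 (-0.67) was left out, and likewise with median scaling (-0.60) and the methods' handling (-0.73).

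SMARCA3 is a helicase-like protein of the SWI/SNF family that also acts as a ubiquitin ligase in DNA damage tolerance. Its all-isoform feature read 9.13, 9.19 and 9.26 in mock, 8.41, 8.32 and 8.32 with OCT4 silenced, 8.84, 8.56 and 8.65 with NANOG silenced, and 8.31, 8.48 and 8.13 with SOX2 silenced. The OCT4 and SOX2 changes were -0.84 and -0.88 ± 0.097 (SE, adjusted p = 1.28e-05 and 8.19e-06). At -0.51 (adjusted p = 0.00207) the NANOG change was under the fold threshold, and it was called at -0.59 when NANOG knock-down replicate 1 was left out. The isoform feature of SMARCA3, at 6.98 to 7.01 in mock and 5.64 to 6.42 over the knock-down arrays, fell in all comparisons, by -0.99 (OCT4), -0.87 (NANOG) and -1.14 (SOX2) ± 0.15 (SE), with adjusted p of 0.000107, 0.000924 and 3.05e-05. Without background correction these were -0.50, -0.44 and -0.56, all under the fold threshold.

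**Figure D2:**
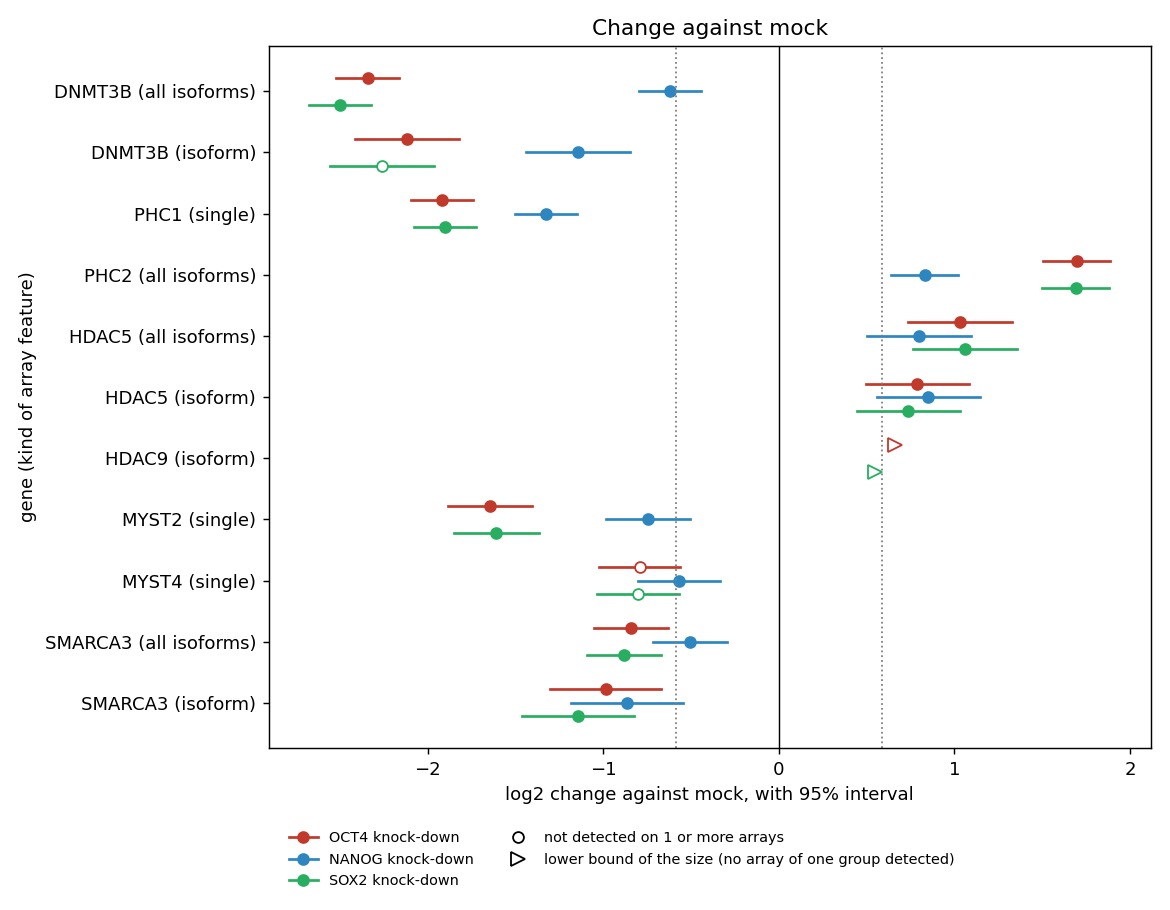
Log2 change of each feature against mock with SOX2, OCT4 or NANOG silenced, with 95% intervals from the fit on 3 arrays per group; dotted lines mark 1.5-fold, open circles mark features not detected on every array of the pair, and triangles mark HDAC9, whose size is a lower bound (1.58-fold and 1.46-fold; no symbol for NANOG, where both groups were below background). PHC2 and HDAC5 lie to the right of 0 and DNMT3B, PHC1, MYST2, MYST4 and SMARCA3 to the left, and the NANOG values of DNMT3B, PHC1, PHC2 and MYST2 lie nearer to 0 than the OCT4 and SOX2 values.

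Whether the knock-downs differed from each other was tested directly, in contrasts that leave the mock arrays out of the difference. Between the NANOG and the OCT4 knock-down, 21.0% of all tested features were called, and 5 member features other than HDAC9 were. DNMT3B (1.72 for the all-isoform and 0.98 for the isoform feature), PHC1 (0.59) and MYST2 (0.90) were higher with NANOG silenced, and PHC2 (-0.87) was lower. The adjusted p of these 5 lay between 4.42e-09 for the all-isoform DNMT3B feature and 7.58e-05 for the isoform feature. HDAC9 was at least 1.70-fold higher in the OCT4 than in the NANOG knock-down. This is a description and is not counted, since HDAC9 passed the detection filter only through the OCT4 and SOX2 knock-downs, where it was high. Over the whole array 43.8% of the called features were higher with NANOG silenced, and 27.5% with the methods' handling, where the median difference of all features was -0.10.

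Between the NANOG and the SOX2 knock-down 20.9% of all features were called. Of the members, DNMT3B (1.88 and 1.12) and MYST2 (0.87) were called higher with NANOG silenced, and PHC2 lower (-0.86). HDAC9, not counted for the same reason, was at least 1.57-fold higher with SOX2 silenced. The share of called features that were higher was 45.0%, or 30.0% with the methods' handling. PHC1 stood at 0.58 (adjusted p = 8.65e-05), just short of the fold threshold. Leaving out NANOG knock-down replicate 3 (0.61) or SOX2 knock-down replicate 3 (0.63) took it past the threshold, as did median scaling (0.61, adjusted p = 5.58e-05). Its difference from the OCT4 knock-down, called at 0.59, was equally close, and was no longer called without OCT4 knock-down replicate 1 (0.53), NANOG knock-down replicate 1 (0.57) or NANOG knock-down replicate 2 (0.58), nor with the methods' handling (0.49) or without background correction (0.51).

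For HDAC5, MYST4 and SMARCA3 no difference between the NANOG knock-down and the OCT4 or SOX2 knock-down was called. The all-isoform HDAC5 feature differed by -0.23 from the OCT4 knock-down (95% interval -0.52 to 0.07, adjusted p = 0.177) and by -0.26 from the SOX2 knock-down (-0.56 to 0.04, adjusted p = 0.13). The isoform feature of HDAC5 lay on the other side of 0, at 0.06 (-0.23 to 0.36) and 0.12 (-0.18 to 0.41). For MYST4 the differences were 0.22 (-0.0095 to 0.46) and 0.23 (-0.0016 to 0.46). The all-isoform SMARCA3 feature stood at 0.33 (0.12 to 0.54, adjusted p = 0.012) and 0.37 (0.16 to 0.59, adjusted p = 0.00621), the latter short of the fold threshold only. Its isoform feature gave 0.12 (-0.20 to 0.44) and 0.28 (-0.04 to 0.60). These intervals do not show that the knock-downs acted alike on these genes. Without background correction the differences of the DNMT3B isoform feature were 0.45 (OCT4) and 0.50 (SOX2) and were not called, nor was that of HDAC9 from the SOX2 knock-down. With the methods' t-test after Benjamini-Hochberg adjustment the differences of MYST2 and of the DNMT3B isoform feature from the SOX2 knock-down were not called.

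The SOX2 and OCT4 knock-downs were not distinguished for any of the 8 genes. Of all features 0% were called by limma (0 of 12374), with 1210 at an unadjusted p under 0.05 and a lowest adjusted p of 0.0602. The methods' t-test called 20 before and 1 after Benjamini-Hochberg adjustment. For the members the SOX2 minus OCT4 differences ran from -0.16 to 0.04 and the lowest adjusted p was 0.581. The widest 95% interval among them, that of the SMARCA3 isoform feature, was -0.48 to 0.16.

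**Figure D3:**
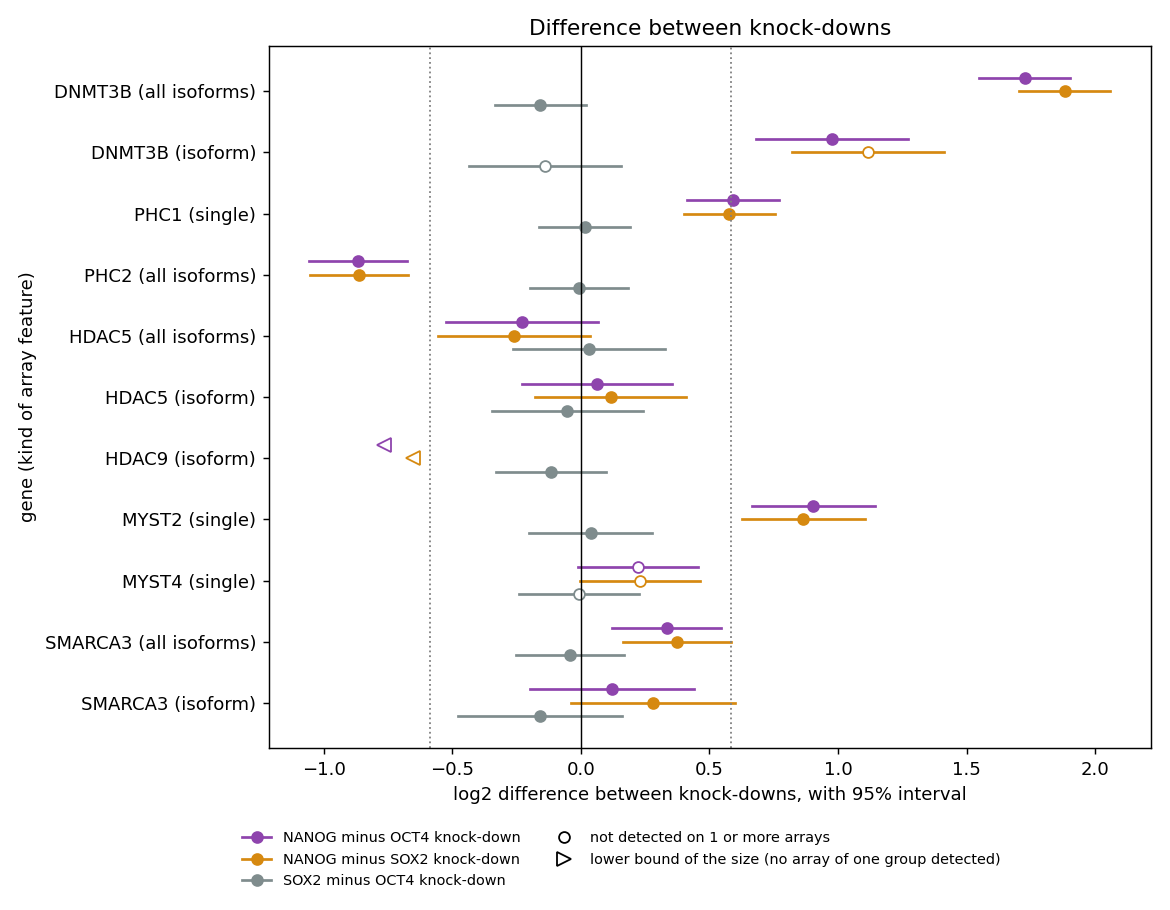
Log2 differences between knock-downs for the 11 features, with 95% intervals from the fit on 3 arrays per group; dotted lines mark 1.5-fold, open circles mark features not detected on every array of the pair, and triangles mark HDAC9, a lower bound on the size (1.70-fold and 1.57-fold). The NANOG minus OCT4 and NANOG minus SOX2 differences of DNMT3B (1.72 and 1.88), PHC2 (-0.87 and -0.86) and MYST2 (0.90 and 0.87) lie beyond the dotted lines, and every SOX2 minus OCT4 interval includes 0.

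For DNMT3B, HDAC5 and SMARCA3 the isoform and the all-isoform feature were compared within each array, and the change of this difference against mock was tested with a two-sided exact permutation test. With 3 arrays against 3 the smallest p is 0.1, so no such result can pass a threshold of 0.05. In the NANOG knock-down the DNMT3B isoform signal fell further than the all-isoform signal, with a change of the difference of -0.52 and no overlap with mock (exact p = 0.1). In the OCT4 and SOX2 knock-downs the values were 0.22 (exact p = 0.2) and 0.24 (exact p = 0.4). SMARCA3 showed -0.15 (exact p = 0.4), -0.36 (exact p = 0.1) and -0.26 (exact p = 0.1) for OCT4, NANOG and SOX2. HDAC5 gave -0.24 (exact p = 0.2), 0.05 (exact p = 0.7) and -0.32 (exact p = 0.2). These differences depended on the background correction and the scaling. Without background correction SMARCA3 gave 0.20, -0.014 and 0.17 for OCT4, NANOG and SOX2, HDAC5 -0.47, -0.25 and -0.53, and DNMT3B 1.11, -0.12 and 1.21. With the methods' handling HDAC5 gave 0.023, 0.20 and -0.072, and DNMT3B 0.14 for OCT4 and 0.087 for SOX2. With median scaling DNMT3B gave 0.39 for OCT4 and 0.51 for SOX2, HDAC5 -0.078 for NANOG, and SMARCA3 -0.15 for SOX2. Each array was also left out in turn, an alternative added after the values were seen. The DNMT3B values then ran from 0.11 to 0.32 (OCT4), from -0.62 to -0.39 (NANOG) and from 0.078 to 0.46 (SOX2), and those of SMARCA3 from -0.29 to -0.052, from -0.42 to -0.31 and from -0.32 to -0.22. Those of HDAC5 ran from -0.33 to -0.14, from -0.039 (without mock replicate 2) to 0.15 and from -0.42 to -0.22, so that only its NANOG value changed sign.

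**Figure D4:**
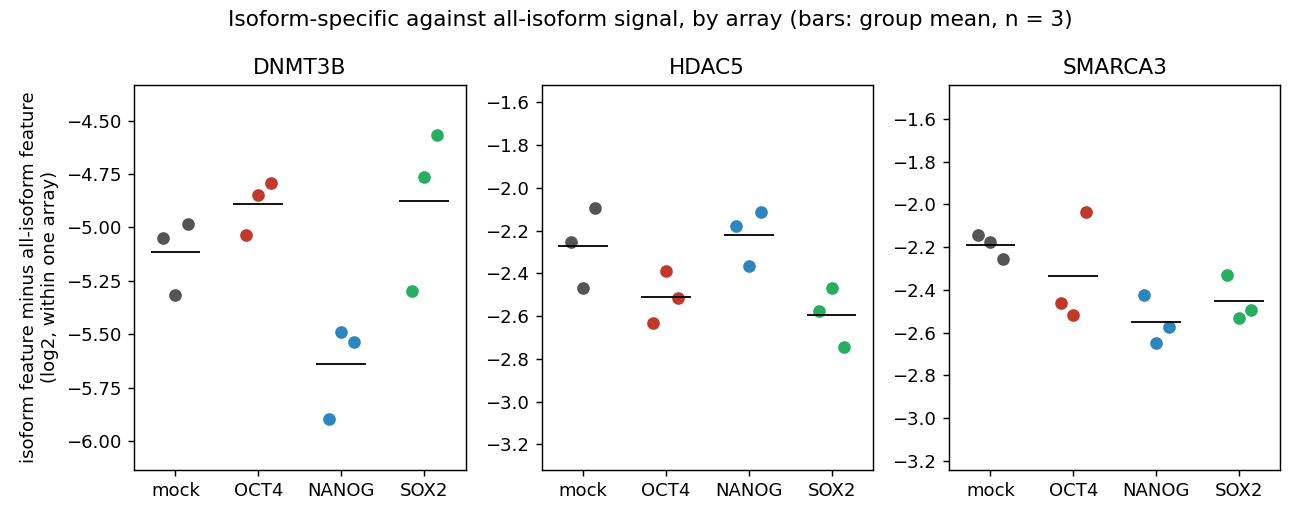
Within-array log2 difference between the isoform and the all-isoform feature of DNMT3B, HDAC5 and SMARCA3, for the 3 arrays (points) of each group, with group means as bars. The height itself depends on the 2 probes and only shifts between groups can be read; the NANOG arrays of DNMT3B (mean -5.64) lie below the mock arrays (mean -5.12), whereas the HDAC5 NANOG and mock arrays overlap (means -2.22 and -2.27).

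Other genes of the same pathways could be named only where the study's supplementary list pairs a feature with a symbol. That list holds features picked as changed on these arrays, and the copy used here is shortened, so the counts below describe it and say nothing of the pathways as a whole. For DNA methylation 2 of 14 listed genes were named, DNMT3B and UHRF1, which guides the maintenance methyltransferase to newly replicated DNA. UHRF1 went the opposite way from DNMT3B, at 0.77 ± 0.064 (SE, adjusted p = 6.7e-07) with OCT4 silenced and 0.74 (adjusted p = 9.01e-07) with SOX2 silenced, and its NANOG value was 0.17 (adjusted p = 0.0699). The difference between the NANOG and the OCT4 knock-down was called at -0.61 and was lost with median scaling (-0.55), without background correction (-0.55), and without OCT4 knock-down replicate 2 (-0.58) or NANOG knock-down replicate 1 (-0.57). That between the NANOG and the SOX2 knock-down was as close to the fold threshold but short of it, at -0.58 (adjusted p = 1.04e-05). It passed with the methods' handling (-0.66) and without NANOG knock-down replicate 2 (-0.61), in alternatives added, as for the other uncalled values of listed genes, after the values were seen.

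For Polycomb repressive complex 1, 3 of 23 listed genes were named: beside PHC1 and PHC2 this was RNF110 (now PCGF2), at -0.59 in the OCT4 and -0.63 in the SOX2 knock-down, called, and at -0.36 in the NANOG knock-down, not called. The RNF110 calls were close to the threshold and the OCT4 call ended without mock replicate 3 (-0.55), without OCT4 knock-down replicate 1 (-0.58), with the methods' handling (-0.54) and without background correction (-0.56), and the SOX2 call ended without SOX2 knock-down replicate 2 (-0.55). For Polycomb repressive complex 2, 3 of 11 were named. JARID2, a subunit that helps the complex find its targets, fell with OCT4 silenced (-1.997, adjusted p = 1.24e-09) and with SOX2 silenced (-2.01, adjusted p = 1.1e-09) and stood at -0.53 in the NANOG knock-down, under the fold threshold. The NANOG knock-down differed by 1.47 (adjusted p = 2.68e-08) from the OCT4 and by 1.48 (adjusted p = 2.34e-08) from the SOX2 knock-down for JARID2. The subunit AEBP2 fell in every knock-down, by -0.81 (OCT4), -0.66 (NANOG) and -0.87 (SOX2); the NANOG fall was -0.53, under the fold threshold, without background correction. The isoform feature of EZH2, the catalytic subunit, gave -0.34, -0.58 and -0.28, none of them called. The NANOG value of EZH2 was called with the methods' handling (-0.59) and without mock replicate 1 (-0.61), mock replicate 2 (-0.59) or NANOG knock-down replicate 3 (-0.69).

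Among the histone deacetylases 5 of 18 listed genes were named, with 6 features. HDAC9 and SIRT4 were not detected on all mock arrays and passed the detection filter only through knock-downs. Of the 4 others, detected on all arrays, 2 rose and 1 fell in the OCT4 and in the SOX2 knock-down, beside 13.6% higher and 10.7% lower (OCT4) and 13.3% and 10.3% (SOX2) over all features. In the NANOG knock-down 3 rose and none fell, beside 4.61% and 4.02%. HDAC4, another class IIa enzyme, was the paralogue of HDAC5 and HDAC9 that could be named. It rose by 0.60 (adjusted p = 0.00052) with NANOG silenced and stood at 0.21 and 0.12 with OCT4 and SOX2 silenced, not called. The NANOG minus OCT4 difference of HDAC4 was 0.39 (adjusted p = 0.00385) and the NANOG minus SOX2 difference 0.47 (adjusted p = 0.00106), both under the fold threshold. Its NANOG rise fell short of that threshold without mock replicate 2 (0.53), NANOG knock-down replicate 2 (0.57) or NANOG knock-down replicate 3 (0.57), and without background correction (0.49).

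The sirtuins, deacetylases that use NAD, were represented by SIRT1 and SIRT4. SIRT1 fell, at -0.69 (OCT4) and -0.74 (SOX2), and gave -0.23 with NANOG silenced, not called; with the methods' handling its OCT4 fall was -0.57, short of the threshold. SIRT4, which acts in mitochondria, was detected on only 1 of the 3 mock arrays and passed the filter only through the knock-downs, where it was high. The values are therefore a description. Fitted, they were 0.78, 0.85 and 0.84 for OCT4, NANOG and SOX2. With the other 2 mock arrays set at the lowest signal that counted as detected on them, SIRT4 gave 0.74, 0.80 and 0.79, lower limits under this background correction. Its rises were 0.32, 0.35 and 0.35 without background correction and none was called there, and those for OCT4 and SOX2 were 1.32 and 1.34 with the methods' handling. The NANOG call was also lost without mock replicate 1 (0.80), mock replicate 2 (0.73), NANOG knock-down replicate 1 (0.74) or NANOG knock-down replicate 2 (0.80), and the OCT4 call without mock replicate 2 (0.67) or OCT4 knock-down replicate 3 (0.72). Without the detection filter (adjusted p = 0.0104) and in a fit on mock and NANOG arrays alone (adjusted p = 0.0193) the NANOG rise of SIRT4 was not called either.

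The histone acetyltransferase list yielded no named gene beyond MYST2 and MYST4 (2 of 18). Of the SWI/SNF-type remodellers 4 of 31 were named. HELLS, a helicase required for normal DNA methylation, fell to a like extent in the OCT4 (-0.84), NANOG (-0.87) and SOX2 (-0.85) knock-downs, all called. Its NANOG minus OCT4 difference was -0.03 (adjusted p = 0.825) and its NANOG minus SOX2 difference -0.02 (adjusted p = 0.915). SMARCA1, the motor of ISWI complexes, rose by 0.84 (OCT4) and 0.89 (SOX2) and stood at 0.24 in the NANOG knock-down, not called. The difference of the NANOG knock-down from the others was called for SMARCA1, at -0.60 (OCT4) and -0.65 (SOX2). The former ended with median scaling (-0.55), without background correction (-0.56), and without OCT4 knock-down replicate 1 (-0.58) or NANOG knock-down replicate 2 (-0.58), and the latter without SOX2 knock-down replicate 2 (-0.57). PB1, a subunit of the PBAF complex, was not called in any of these comparisons, though its OCT4 and SOX2 values (0.42 and 0.38) were called with the methods' handling, at 0.79 and 0.71.

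Of the histone methyltransferases and demethylases 5 of 41 listed genes were named. Of these 2 were higher and 2 lower in the OCT4 and in the SOX2 knock-down, where 13.6% and 13.3% of all features were higher and 10.7% and 10.3% lower, and 1 was lower and none higher in the NANOG knock-down (4.02% lower and 4.61% higher over all features). ASH2L, a core subunit of the MLL-type methyltransferase complexes, fell with OCT4 silenced (-1.42, adjusted p = 2.99e-09) and with SOX2 silenced (-1.45, adjusted p = 2.27e-09) and stood at -0.12 in the NANOG knock-down (adjusted p = 0.171); the NANOG minus OCT4 difference was 1.29 (adjusted p = 8.65e-09) and the NANOG minus SOX2 difference 1.33 (adjusted p = 6.58e-09). JMJD2A (now KDM4A), a histone demethylase, fell in all knock-downs, by -1.51 (OCT4), -0.63 (NANOG) and -1.36 (SOX2), the NANOG value being -0.49 without background correction and then not called. HRMT1L1 (now PRMT2), an arginine methyltransferase, rose by 0.73 (OCT4) and 0.78 (SOX2). Its NANOG minus OCT4 difference was -0.46 (adjusted p = 0.000691) and its NANOG minus SOX2 difference -0.51 (adjusted p = 0.00032), both under the fold threshold. The latter was called with the methods' handling (-0.59).

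SMYD2, RNF110, EZH2, PB1 and UTX lay outside the rule for named genes and were added after their values were seen. The lysine methyltransferase SMYD2 rose by 0.62 (OCT4) and 0.59 (SOX2) and stood at -0.27 with NANOG silenced, the NANOG minus OCT4 difference being -0.89 (adjusted p = 3.3e-07) and the NANOG minus SOX2 difference -0.86 (adjusted p = 4.29e-07). Both rises of SMYD2 were under the fold threshold with median scaling (0.53 and 0.51), without background correction (0.56 and 0.53) and without mock replicate 1 (0.58 and 0.55). The SOX2 rise also ended without mock replicate 3, SOX2 knock-down replicate 2 or SOX2 knock-down replicate 3, at 0.58 each. UTX (now KDM6A), which removes the mark placed by Polycomb repressive complex 2, was called in no comparison with mock, at 0.45 (OCT4), -0.31 (NANOG) and 0.42 (SOX2), but with the methods' handling the OCT4 and SOX2 values were 0.84 and 0.78 and were called. The NANOG knock-down differed from both others for UTX, by -0.76 (OCT4, adjusted p = 6.39e-05) and -0.73 (SOX2, adjusted p = 8.7e-05), and without background correction these were -0.47 and -0.45 and not called. After Benjamini-Hochberg adjustment the methods' t-test did not call the NANOG rise of HDAC4, the SOX2 change of SIRT1, SMARCA1 and HELLS, the NANOG change of HELLS, the NANOG minus SOX2 differences of SMARCA1 and UTX, or any rise of SIRT4.

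The features whose signal followed DNMT3B and PHC2 most closely were found by Pearson correlation over the 12 arrays. The all-isoform DNMT3B feature was most like a transcript known only by its UniGene cluster (r = 0.998), JARID2 (r = 0.998) and HAS3 (r = 0.996). PHC2 was most like TMEPAI (r = 0.996), LOC91170 (r = 0.995) and JUND (r = 0.995). These values are descriptions: the arrays fall into 4 groups, so r mainly follows the group means. Deviations from the group means correlated at 0.871, 0.811 and 0.209 for the DNMT3B neighbours and at 0.760, 0.874 and 0.729 for those of PHC2, and arrays of a group also share technical variation.

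Marker genes of cell state moved in the same comparisons. Of the undifferentiated markers 10 of 12 listed genes were named, with 11 features. POU5F1, NANOG, PRDM14 and ZNF206 were not detected on all arrays and passed the filter through part of the groups, mock among them. Of the 7 features detected on all arrays (TDGF1, LIN28, UTF1, DPPA4, GDF3 and both of TERF1), 7 fell with OCT4 silenced, 5 with NANOG silenced and 6 with SOX2 silenced, beside 10.7%, 4.02% and 10.3% of all features. GDF3 stood at -5.34 (OCT4), -1.33 (NANOG) and -5.67 (SOX2). Of the mesoderm and smooth muscle markers 10 of 11 were named. ACTA2, ACTC, MSX1, RUNX1, COL1A1 and COL2A1 passed the filter only through the OCT4 and SOX2 knock-downs, where they were high. The filter itself thus picked them for a difference from mock, and no count is given for these 6. Of the 4 detected on all arrays (HAND1, MSX2, BMP4 and TAGLN), 3 rose with OCT4 and 3 with SOX2 silenced, beside 13.6% and 13.3% of all features (MSX2, at 0.48 and 0.46, was not called), and 2 rose and 1 fell with NANOG silenced, beside 4.61% and 4.02%. HAND1, a transcription factor of extra-embryonic and cardiac mesoderm, rose in every knock-down, by 3.20 (OCT4), 1.87 (NANOG) and 2.96 (SOX2), and the smooth muscle gene TAGLN by 5.30, 0.88 and 5.46. They are the 2 counted above as higher with NANOG silenced and do not stand for the list there. For that knock-down the study lists MSX2 as lower and BMP4 as nearly unchanged, and reports that most of its mesoderm markers did not rise.

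Of the proliferation markers 4 of 20 were named: 3 fell with OCT4 silenced, 3 with SOX2 silenced and none with NANOG silenced, beside 10.7%, 10.3% and 4.02% of all features. The medians were -0.69, -0.78 and -0.17, against -0.03, -0.04 and 0.0068 over all features. CCNA2 gave -0.75, -0.31 and -0.83 for OCT4, NANOG and SOX2, the NANOG value not called. By counting cells the study found reduced proliferation with NANOG silenced, and it describes a reduction with OCT4 and SOX2 silenced too. The 4 named genes are thus no measure of growth. No gene of the trophoblast (6), endoderm (5) and ectoderm (5) lists was named, so these states were not assessed here. The named markers too come from the study's list of changed features and are no independent evidence of a direction. What part the change of cell state or of the cell cycle had in the changes of the chromatin enzymes was not tested.

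Because the silenced factors bind DNA, the promoters of the members were searched for the octamer ATGCAAAT, the sequence that POU factors such as OCT4 recognise, and for CATTGT, a core of the sites of SOX factors, on both strands. The promoter sequences used here are from RefSeq on build GRCh38.p14, each running from 250 bases before to 50 bases after a start site. For 7 of the 8 genes 15 such windows were at hand, and HDAC5 was not searched. The octamer was found in 2 of the 15 and CATTGT in 6, against 1.77% and 10.8% of all 35116 windows of this length. Windows of a gene can overlap, and 2 windows of HDAC9 hold the same octamer and the same CATTGT. By position there was 1 octamer, in HDAC9, and there were 5 CATTGT, 3 of them in HDAC9, so the window counts are not to be set against those shares as independent finds. Shown, chosen after their values were seen, are the first listed windows of 4 genes that differed between knock-downs, in lower case with either motif in capitals. MYST2 differed between knock-downs as well and is not shown, and its only window held neither motif.

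DNMT3B has 1 window, chr20:32779602-32779901 on the plus strand; PHC1 is shown at chr12:8913593-8913892 on the plus strand, PHC2 at chr1:33431046-33431345 on the minus strand, and HDAC9 at chr7:18495499-18495798 on the plus strand. Each is written 5′ to 3′ on the gene's strand.
DNMT3B: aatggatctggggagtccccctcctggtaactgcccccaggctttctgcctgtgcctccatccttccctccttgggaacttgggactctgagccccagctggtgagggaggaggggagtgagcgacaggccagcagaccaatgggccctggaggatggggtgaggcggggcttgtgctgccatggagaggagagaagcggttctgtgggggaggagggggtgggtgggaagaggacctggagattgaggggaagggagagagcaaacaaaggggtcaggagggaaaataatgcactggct
PHC1: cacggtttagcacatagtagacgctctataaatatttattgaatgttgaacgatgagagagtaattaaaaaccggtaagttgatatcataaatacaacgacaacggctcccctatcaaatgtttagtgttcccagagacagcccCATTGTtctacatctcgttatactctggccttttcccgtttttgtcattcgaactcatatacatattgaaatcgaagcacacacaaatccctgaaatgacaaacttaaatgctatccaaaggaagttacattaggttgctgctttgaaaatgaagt
PHC2: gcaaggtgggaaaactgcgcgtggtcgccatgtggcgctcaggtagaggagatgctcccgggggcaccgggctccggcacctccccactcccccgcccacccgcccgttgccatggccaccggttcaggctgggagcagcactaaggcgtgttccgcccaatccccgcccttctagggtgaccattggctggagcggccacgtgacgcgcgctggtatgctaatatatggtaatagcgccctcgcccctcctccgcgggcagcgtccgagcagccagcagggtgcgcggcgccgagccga
HDAC9: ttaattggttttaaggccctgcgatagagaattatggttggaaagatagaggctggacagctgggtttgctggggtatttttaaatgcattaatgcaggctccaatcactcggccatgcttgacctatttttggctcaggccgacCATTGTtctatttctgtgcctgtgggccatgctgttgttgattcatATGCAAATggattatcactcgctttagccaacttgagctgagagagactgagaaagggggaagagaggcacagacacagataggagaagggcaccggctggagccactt

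The HDAC9 window held both motifs, which do not overlap: CATTGT begins 105 bases before the start site (-105) and the octamer 59 bases before it (-59). Of all windows 0.234% held both, a share that is no test for a window chosen after the values were seen. The PHC1 window held CATTGT at -106, and the windows shown for DNMT3B and PHC2 held neither. PHC2 has a further window with CATTGT at its start site. DNMT3B has 3 CG pairs in its window, where DNA methylation could occur, against a median of 14 over all windows, PHC1 has 10, HDAC9 5 and PHC2 30 in the windows shown. The count depends on the window: the other PHC1 window has 28, the other PHC2 window 48, and the other HDAC9 windows have 0 to 41. A match is a description of the letters, not a binding site, and the array does not tell which start site NCCIT cells use. In binding data from human embryonic stem cells that the study cites, HDAC9 is marked as bound by SOX2 and not by OCT4 or NANOG. SMARCA3 is marked there as bound by NANOG and SOX2, while its window here held neither motif.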

How the data were processed

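Biotin-labelled cRNA, amplified from total RNA of NCCIT cells, was hybridised to Illumina human-6 version 1 BeadChips, 1 array per biological replicate (4 groups of 3). Per the file headers and the methods, the authors deposited for each array a mean bead intensity per feature, neither background-subtracted nor normalised, and a detection score against negative control beads (BeadStudio 1.0), together with a table of background-subtracted, rank-invariant normalised intensity means of each group, which served as an alternative. The medians of that table's columns were 167 (mock), 146 (OCT4), 152 (NANOG) and 167 (SOX2). Its scale is linear, as comparison with the arrays showed, and what its empty cells stand for was not stated.

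Here the intensities were background-corrected with limma 3.58.1 in R 4.3.3 (normexp, background inferred from the detection scores, offset 16), quantile normalised and put on a log2 scale. The 12374 features with a detection score of at least 0.99 on all arrays of at least 1 group were fitted with lmFit and eBayes over all 12 arrays. Adjusted p-values are Benjamini-Hochberg values over these features, per comparison. The procedure was tested on simulated data. The number of arrays limits the precision.

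The files hold no gene names. Members were matched by feature number, other genes through symbols in the study's supplementary list. Named were all members, the targets, in each chromatin list the called feature with the largest rise and the largest fall in the OCT4 and SOX2 knock-downs and up to 4 called in the NANOG knock-down, paralogues of members, and the 3 features most like DNMT3B and PHC2. Members and lists were chosen with earlier results of these data known. Alternatives were the scaling, the background, the filter, the groups in the fit, the replicate block, the thresholds, the methods' t-test, leaving out each array, and the deposited table.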

Additional observations from a re-analysis of the deposited data

Results flagged for a closer look

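Differences between knock-downs that passed the test of the difference itself were singled out for these genes. The NANOG knock-down differed from the OCT4 knock-down for DNMT3B by 1.72 (all-isoform feature) and 0.98 (isoform feature), for PHC1 by 0.59, for PHC2 by -0.87 and for MYST2 by 0.90, on the log2 scale, and HDAC9 was at least 1.70-fold higher with OCT4 silenced. From the SOX2 knock-down it differed for DNMT3B by 1.88 and 1.12, for PHC2 by -0.86 and for MYST2 by 0.87, and HDAC9 was at least 1.57-fold higher with SOX2 silenced. HDAC9 entered the fit only through the OCT4 and SOX2 knock-downs, where it was high, so its differences are descriptions and not tests. The PHC1 difference was no longer called without OCT4 knock-down replicate 1 (0.53), NANOG knock-down replicate 1 (0.57) or NANOG knock-down replicate 2 (0.58), with the methods' handling (0.49) and without background correction (0.51). Without background correction the DNMT3B isoform differences (0.45 and 0.50) and that of HDAC9 from the SOX2 knock-down were not called either, and the methods' t-test after adjustment did not call MYST2 or the DNMT3B isoform feature against the SOX2 knock-down. In each difference named the 3 arrays of a group lay apart from the 3 of the other. Since these differences were picked by the call, this is a description and no further evidence. The degree to which each target was silenced differed too, NANOG being still detected on all 3 arrays after its own silencing (-1.85 against mock), and its part in these differences was not tested.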

How the results depend on the processing

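The counts moved with the background correction and with the thresholds. Without background correction 1481 features were called with OCT4, 375 with NANOG and 1498 with SOX2 silenced, 1240 between NANOG and OCT4, 1294 between NANOG and SOX2 and 8 between SOX2 and OCT4 knock-downs, and 5, 7 and 3 member features in the NANOG, SOX2 and NANOG minus SOX2 comparisons. By construction, an adjusted p under 0.05 with no fold threshold raised the counts to 6998, 3785, 6825, 6426 and 6354 in the same order up to NANOG minus SOX2, and a 2-fold threshold lowered them to 1285, 323, 1305, 1036 and 1057, with 7, 2, 2 and 3 members called for OCT4, NANOG, NANOG minus OCT4 and NANOG minus SOX2. HDAC9 is among these 2-fold counts, except for NANOG, by its fitted size, while its bounds (1.58-, 1.70- and 1.57-fold) lie under 2-fold. The methods' t-test after adjustment called 240 features and 1 member with NANOG silenced, 1619 and 3 between NANOG and SOX2, and 1 between SOX2 and OCT4, where the unadjusted t-test called 20, median scaling 3 and a fit on the 2 groups alone 1. Leaving out each array in turn gave between 0 and 3 calls there (1 without mock replicate 2, 3 without SOX2 knock-down replicate 3). Apart from those constructions the cause was not tested.

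No member change called against mock or between knock-downs changed sign. Uncalled values that did were HDAC5 (isoform) and SMARCA3 (isoform) for NANOG minus OCT4, at -0.18 and -0.10 with the methods' handling, and HDAC5 (isoform) for NANOG minus SOX2, at -0.079. With 1 array left out the NANOG minus OCT4 values ran from -0.061 to 0.21 for HDAC5 and from -0.019 to 0.26 for SMARCA3. The replicate numbers did not pair the arrays: of 18 pairs with the same number 4 had deviations correlated above 0.1 (range -0.30 to 0.31), and 3 of 12 arrays correlated best with their own number. Of the 36 pairs with different numbers 13 were above 0.1 (-0.33 to 0.31). Mock replicate 1, OCT4 2, NANOG 2 and SOX2 3 correlated at 0.16 to 0.31 in every pair, and mock 2 and replicate 1 of each knock-down at 0.13 to 0.31. These sets were noticed in the values and no label gives them, so no fit used them, and their part in the counts, the 0 between SOX2 and OCT4 included, was not tested. With the replicate number as a block the counts were 2992, 1048, 2899, 2575, 2570 and 0, and no member call changed. Ratios from the deposited table (no test) kept the direction of the member changes, 14 of 30 moving by more than the spread between arrays; HDAC9 had no ratio there. A slide block was not run, since the files name no slide. Signals near background limit MYST4, HDAC9 and the isoform features.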
